A study of Mus musculus with 18 samples.

Results

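Skeletal muscle is supplied by myelinated nerves, and myelin in these nerves is made by Schwann cells. The 8 genes described here, Mbp, Pmp22, Sox10, S100b, Mag, Prx, Ngfr and Cnp, mark Schwann cells or their myelin. They were followed in RNA that had been separated into the nuclei and the cytoplasm of isolated mouse myofibers, the multinucleated cells of muscle, to ask whether transcripts of nerve-associated cells were present and in which fraction. All array probes carrying one of these gene names were used, which gave 11 probes at 20 positions on the array, of 55681 probe names in all.

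Myofibers were taken from 3 hindlimb muscles, the tibialis anterior (TA), the soleus and the extensor digitorum longus (EDL), of CD1 female mice aged 3 months, without any genetic change or experimental treatment. Muscles were digested with type I collagenase, intact fibers were picked, and pools of 5 to 10 fibers were lysed with detergent and spun so that nuclei formed the pellet and cytoplasm the supernatant. Each muscle and fraction had 3 arrays, 18 in all, read in a single colour. The pools of EDL and soleus came from mice 3 and 4, 5 and 6, or 7 and 8, so nuclear and cytoplasmic arrays of the same number came from the same mice. In TA, nuclei came from mice 1, 2 and 3 and cytoplasm from mice 5 and 1, 5 and 2, and 9. Which fibers of a pool still carried pieces of nerve, vessel or connective tissue is not given in the sources used here.

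Schwann cells arise from the neural crest, and the transcription factor Sox10 is needed to form them and to keep them differentiated. Together with Egr2, Sox10 turns on the genes of myelin, a stack of membranes held together by proteins such as Pmp22 and Mbp. Other Schwann cell proteins stand at the outer surface, like periaxin (Prx), or at the face towards the axon, like Mag. Not all of the 8 genes are confined to nerve, and Pmp22, Cnp, Ngfr and S100b are also made by other kinds of cells.

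The array read 6 of the genes at a single place and 2 at several. Positions are given on mm9, the build of the array files. Sox10 was read at chr15:78985518-78985577, Ngfr at chr11:95430211-95430270, S100b at chr10:75723783-75723842, Prx at chr7:28304999-28305058, Cnp at chr11:100442617-100442676 and Mag at chr7:31684202-31684261. The accession of all 11 probes belonged to the gene named on the array. The Ngfr probe was printed 10 times on each array, and its log2 signal had a median SD of 0.11 within a nuclear array and 0.14 within a cytoplasmic array.

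Pmp22 had 2 probes 1127 bases apart, and they did not behave alike between fractions, so the sequence of the one that ends at the reading frame is shown. The stop codon probe (A_55_P2040168) lay at chr11:62971862-62971921, forward strand, and the capitals mark the TGA triplet at position 54, counted from 1 at the 5′ end:
Pmp22 stop codon probe: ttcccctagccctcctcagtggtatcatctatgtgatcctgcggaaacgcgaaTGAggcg
The 3′ probe (A_55_P2040170) lay at chr11:62972989-62973048. It was among the 4 of 11 probes that held AATAAA, the hexamer of the polyadenylation signal.

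Since Sox10 acts on genes of myelin, the stretch before the start of 2 other members was searched for SOX-type letters. A difference of Sox10 RNA between fractions does not show a change in its activity. These were Prx, called higher in nuclei in every muscle, and Mag, which differed the other way in soleus and TA. The sequences are RefSeq's (GRCm38.p6), 250 bases before the most upstream start in the table, at chr7:27499074-27499323 on the forward strand for Prx and chr7:30914923-30915172 on the reverse strand for Mag. Capitals mark ACAAAG or ACAATG on either strand (CTTTGT and CATTGT when read on the other strand):
Prx: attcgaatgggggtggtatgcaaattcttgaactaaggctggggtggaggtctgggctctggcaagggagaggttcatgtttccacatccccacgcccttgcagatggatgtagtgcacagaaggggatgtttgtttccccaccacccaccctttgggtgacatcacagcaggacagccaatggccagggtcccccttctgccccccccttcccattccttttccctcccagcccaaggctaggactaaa
Mag: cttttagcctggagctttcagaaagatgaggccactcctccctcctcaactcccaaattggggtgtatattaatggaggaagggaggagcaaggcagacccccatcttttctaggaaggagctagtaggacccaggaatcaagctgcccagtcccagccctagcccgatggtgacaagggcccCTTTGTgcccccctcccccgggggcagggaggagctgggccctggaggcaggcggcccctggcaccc
ACAAAG occurred in 3 of the 11 windows of the 6 member genes in the table, those of Mag and Cnp, and in 16.5% of all 32851 windows of this length. ACAATG occurred in 0 of the 11 and in 10.69% of all windows. A match is a description of letters and not of a bound site.

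Levels below are log2 of quantile-normalized intensity, and differences are nuclei minus cytoplasm on that log2 scale with the standard error (SE) of the limma fit. The main fit took the spread of each probe from all 6 groups together. An SE therefore also reflects groups outside the comparison, and between nuclei it also carries the wider cytoplasmic spread. Because a bulk level sums over all cells of a pool, fewer Schwann cells and less RNA per Schwann cell cannot be told apart. Between 58.6% and 71.2% of array positions were well above background on each array. Slides limit the comparison of fractions. All EDL and soleus cytoplasm shared 1 slide and all EDL and soleus nuclei another, so slide and fraction cannot be told apart in those muscles. In TA 2 of the 3 cytoplasmic arrays were scanned on the same day as the TA nuclei, 1 of them on the same slide.

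All 8 genes had signal well above background in nuclei of all 3 muscles, on at least 2 of 3 arrays each. Some genes of cells absent from muscle, given below, passed this flag too, so it does not by itself show that a transcript was present. Signal was well above background in 93.9% of the 99 nuclear values and 79.8% of the 99 cytoplasmic values, against 64.6% and 65.2% over all probes. The probes of Sox10, Ngfr, S100b, Mag and Pmp22 and the junction probe of Mbp, 7 in all, were well above background on all 18 arrays. Prx split cleanly, being well above background on 9 of 9 nuclear arrays and 0 of 9 cytoplasmic arrays. No member value came from a saturated position. The plot of levels by array shows these values.

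**Figure D1:**
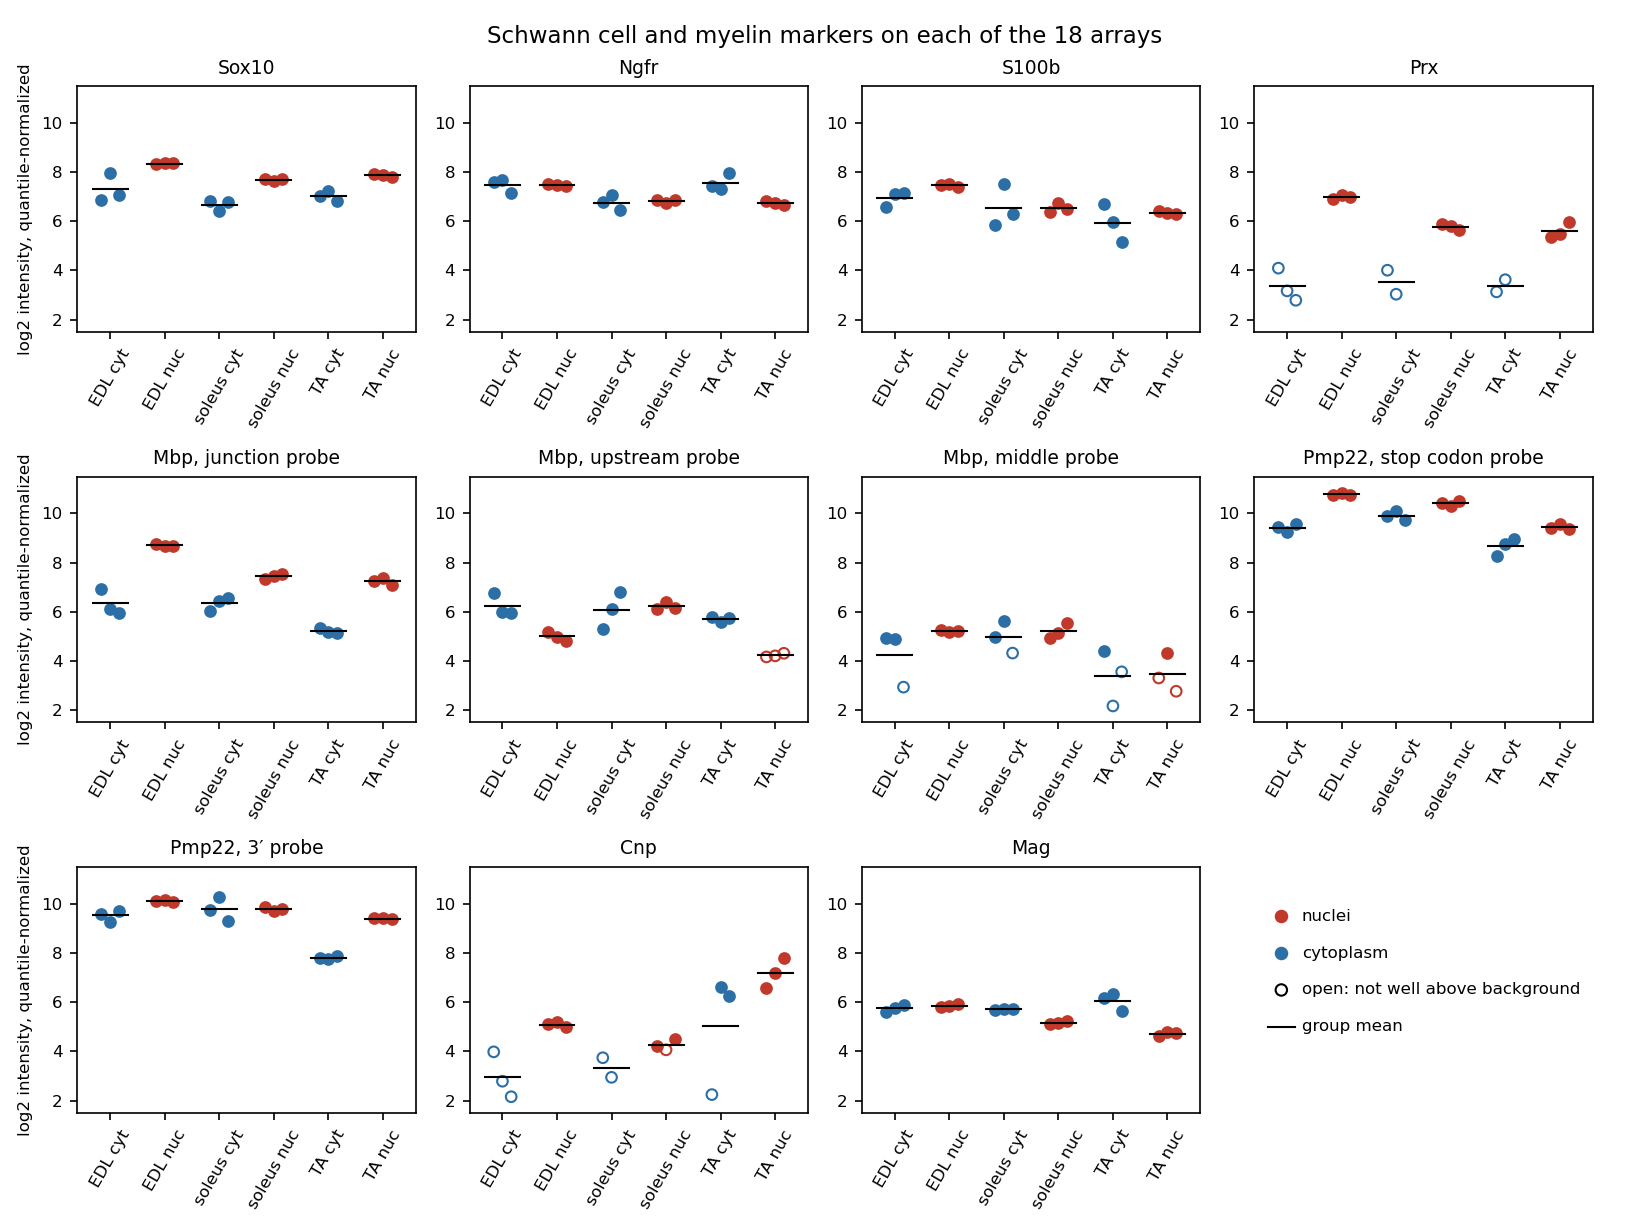
Log2 quantile-normalized intensity (vertical axis) of the 11 probes on each of the 18 arrays, with cytoplasm in blue, nuclei in red, open points for values not well above background and lines for group means. Nuclear arrays of a muscle lie close together, with a median SD of 0.08 against 0.35 in cytoplasm, and Prx is open in every cytoplasmic array that has a value.

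Sox10 was higher in nuclei in every muscle. Its levels were 8.31, 8.36 and 8.38 in EDL nuclei against 6.85, 7.94 and 7.08 in EDL cytoplasm. In soleus they were 7.71, 7.64 and 7.72 in nuclei and 6.82, 6.43 and 6.79 in cytoplasm. In TA they were 7.93, 7.88 and 7.78 in nuclei and 7.03, 7.22 and 6.84 in cytoplasm. The fractions did not overlap in any muscle. The difference was 1.05 ± 0.23 (SE, adjusted p = 0.0018) in EDL, 1.01 ± 0.23 (adjusted p = 0.003) in soleus and 0.83 ± 0.23 (adjusted p = 0.0069) in TA, n = 3 arrays a group, by limma with Benjamini-Hochberg adjustment over all probes. Within the shared scan day, the TA difference was also 0.83.

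Ngfr, the low-affinity neurotrophin receptor p75 found on immature and non-myelinating Schwann cells, differed between fractions in TA only by this threshold. EDL nuclei stood at 7.50, 7.48 and 7.44 and EDL cytoplasm at 7.59, 7.67 and 7.13. Soleus nuclei stood at 6.85, 6.75 and 6.88 and soleus cytoplasm at 6.77, 7.05 and 6.44. In both muscles the nuclear values lay inside the cytoplasmic range. In TA the nuclei stood at 6.81, 6.73 and 6.66 and the cytoplasm at 7.44, 7.31 and 7.98, so every cytoplasmic array was above every nuclear one. The TA difference was -0.84 ± 0.21 (SE, limma adjusted p = 0.0035), against 0.01 ± 0.21 in EDL and 0.08 ± 0.21 in soleus. Whether the muscles differed in this respect was tested by the interaction, which did not pass (adjusted p = 0.16).

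S100b, a calcium-binding protein of Schwann cells, did not pass the test in any muscle, though with no scaling between arrays it did in soleus (1.05, limma adjusted p = 0.023). EDL nuclei read 7.48, 7.54 and 7.38, all above the EDL cytoplasm at 6.58, 7.09 and 7.14. Soleus nuclei read 6.38, 6.76 and 6.52 and soleus cytoplasm 5.87, 7.50 and 6.29, with the same mean of 6.55. TA nuclei read 6.40, 6.32 and 6.29 and TA cytoplasm 6.68, 5.98 and 5.17. The fractions overlapped in soleus and TA, and the cytoplasmic SD was 0.85 in soleus and 0.76 in TA. The difference over the 3 muscles was 0.31 ± 0.22 (SE, limma adjusted p = 0.22). Soleus cytoplasm 2 was the highest of its group, and without it the soleus difference was 0.47 (limma adjusted p = 0.25).

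The gene of periaxin, the scaffold protein of the outer Schwann cell membrane, was well above background in nuclei alone. Prx read 6.91, 7.06 and 6.97 in EDL nuclei, 5.87, 5.81 and 5.67 in soleus nuclei and 5.36, 5.49 and 5.98 in TA nuclei. In cytoplasm it read 4.09, 3.17 and 2.79 in EDL, 4.01 and 3.03 on soleus arrays 1 and 2, and 3.13 and 3.62 on TA arrays 1 and 3. Soleus cytoplasm 3 and TA cytoplasm 2 had no positive and significant signal and were left out of the fit. No cytoplasmic array with a value reached the lowest nuclear array of any muscle. The measured differences were 3.63 ± 0.33 (SE, adjusted p = 3.3e-06) in EDL, 2.26 ± 0.37 (adjusted p = 0.00038) in soleus and 2.23 ± 0.37 (adjusted p = 0.00025) in TA by limma. Since no cytoplasmic value was well above background, the folds are lower limits, in which each cytoplasmic array took the higher of its own signal and the lowest signal well above background on that array. By these limits Prx was at least 6.90-fold higher in nuclei in EDL, at least 2.60-fold in soleus and at least 2.71-fold in TA.

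Mbp had 3 probes. The junction probe (A_52_P329451) spanned an intron between chr18:82742266 and 82744570. The middle probe (A_52_P604195) lay 14337 bases and the upstream probe (A_55_P1992160) 50797 bases before it. The Mbp locus makes both the classic myelin transcripts and the longer golli transcripts, which begin further upstream and are also made outside myelinating cells. Which of these each probe reads was not determined here.

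The probes of Mbp, whose product closes the cytoplasmic faces of the myelin membrane, disagreed. At the junction probe nuclei were above cytoplasm everywhere. EDL nuclei read 8.77, 8.66 and 8.69 against 6.93, 6.13 and 5.96 in cytoplasm. Soleus nuclei read 7.34, 7.47 and 7.53 against 6.02, 6.44 and 6.55. TA nuclei read 7.26, 7.37 and 7.09 against 5.35, 5.19 and 5.14. The fractions were separate in each muscle, and furthest apart in EDL. The differences were 2.37 ± 0.23 (SE, adjusted p = 2.2e-06) in EDL, 1.11 ± 0.23 (adjusted p = 0.0014) in soleus and 2.02 ± 0.23 (adjusted p = 8.7e-06) in TA by limma.

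The upstream Mbp probe went the other way in EDL and TA. EDL nuclei read 5.18, 4.99 and 4.83 against 6.77, 6.00 and 5.94 in cytoplasm, a difference of -1.24 ± 0.30 (SE, limma adjusted p = 0.0037). TA nuclei read 4.16, 4.21 and 4.31, none of them well above background, against 5.80, 5.59 and 5.74 in cytoplasm. By the lower limit, TA cytoplasm was at least 2.64-fold higher (limma adjusted p = 0.00084). In soleus the groups overlapped, with nuclei at 6.13, 6.38 and 6.14 and cytoplasm at 5.31, 6.11 and 6.82. The soleus difference of 0.13 ± 0.30 did not pass the test. The middle probe did not pass in any muscle, its difference being 0.97 ± 0.58 in EDL, 0.23 ± 0.58 in soleus and 0.08 ± 0.58 in TA, and some arrays of EDL cytoplasm, soleus cytoplasm and both TA fractions were not well above background.

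Pmp22 encodes a membrane protein of compact myelin. At the stop codon probe the nuclei were above the cytoplasm in each muscle without overlap. EDL read 10.75, 10.84 and 10.73 in nuclei and 9.45, 9.26 and 9.57 in cytoplasm. Soleus read 10.43, 10.31 and 10.50 in nuclei and 9.90, 10.11 and 9.73 in cytoplasm. TA read 9.41, 9.59 and 9.38 in nuclei and 8.27, 8.77 and 8.95 in cytoplasm. The differences by limma were 1.35 ± 0.19 (SE, adjusted p = 4.7e-05) in EDL, 0.50 ± 0.19 (adjusted p = 0.043) in soleus and 0.79 ± 0.19 (adjusted p = 0.0023) in TA. The soleus call was close to the threshold. It was lost with scaling to the 75th percentile (adjusted p = 0.061) and with the replicate number as a block (0.059). It was also lost when soleus cytoplasm 1 (0.089), soleus cytoplasm 3 (0.14), or soleus nuclei 1 (0.10), 2 (0.066) or 3 (0.12) was left out, all adjusted p-values of limma.

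At the 3′ probe of Pmp22 the pattern over muscles was another one. EDL read 10.10, 10.17 and 10.09 in nuclei and 9.59, 9.28 and 9.72 in cytoplasm. Soleus read 9.85, 9.71 and 9.79 in nuclei and 9.77, 10.28 and 9.30 in cytoplasm, with a mean of 9.79 against 9.78. TA read 9.41, 9.41 and 9.38 in nuclei and 7.79, 7.76 and 7.89 in cytoplasm. The cytoplasm spanned the nuclear values in soleus and lay below them in EDL and TA. The difference was 1.59 ± 0.21 (SE, limma adjusted p = 2.8e-05) in TA and 0.59 ± 0.21 (limma adjusted p = 0.030) in EDL. The EDL call was lost without EDL cytoplasm 2 (adjusted p = 0.12) or without EDL nuclei 1 (0.064), 2 (0.079) or 3 (0.063).

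Cnp, a phosphodiesterase of non-compact myelin, was the least securely measured member. EDL nuclei read 5.12, 5.19 and 4.98, and EDL cytoplasm read 3.98, 2.79 and 2.16 with no array well above background. Soleus nuclei read 4.21, 4.07 and 4.50, and soleus cytoplasm 3.74 and 2.95 on arrays 1 and 3, array 2 having no value for the fit. Nuclear arrays lay above the cytoplasmic ones in both muscles. In EDL Cnp was at least 1.87-fold higher in nuclei by its lower limit, while the fit did not pass (2.12 ± 0.84, limma adjusted p = 0.051). That SE took in TA cytoplasm, whose SD was 2.43, against 0.11 in EDL nuclei and 0.93 in EDL cytoplasm. In soleus the difference of 0.91 ± 0.94 did not pass (limma adjusted p = 0.46), soleus nuclei 2 was not well above background, and no lower limit above 1 could be given. In TA the nuclei read 6.58, 7.19 and 7.79 and the cytoplasm 2.25, 6.60 and 6.28, so the fractions overlapped.

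The TA values of Cnp moved with the slide. TA cytoplasm 1, on the slide of the EDL and soleus cytoplasm, read 2.25, and the other TA cytoplasmic arrays, scanned with the TA nuclei, read 6.60 and 6.28. The TA difference was 2.14 ± 0.84 (SE, limma adjusted p = 0.044) over all arrays. Within the shared scan day, which leaves out TA cytoplasm 1, it was 0.75 ± 0.37 (limma adjusted p = 0.15). With the slide as a fixed effect it was 0.58. That estimate rests on TA cytoplasm 2 alone, since the other TA cytoplasmic arrays were on slides without TA nuclei. With the replicate number as a block the adjusted p was 0.054, and without TA nuclei 2 or 3 it was 0.085 or 0.13. Cdh15, a cadherin of satellite cells, also stood higher in TA, with a mean level of 10.23 in cytoplasm and 12.06 in nuclei against 6.47 in EDL nuclei and 6.84 in soleus nuclei. The TA cytoplasmic arrays did not share this level. The summed intensity of the satellite cell list, Cdh15 included, ran from 183 to 5892 over them, against 4307 to 5297 in TA nuclei. The satellite cell list did not follow as a whole. Of its 5 genes tested between nuclei, TA had 2 higher and 1 lower than EDL, against 7.59% and 9.81% of all probes. Against soleus, TA had 1 higher and 1 lower, against 7.75% and 11.9%. Chodl stood lower in TA nuclei, at 7.15 against 8.50 in EDL and 8.87 in soleus. The part of Cdh15 in the Cnp result was not tested.

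Mag, the glycoprotein on the inner face of the myelin sheath, was not higher in nuclei in any muscle by the test. EDL read 5.80, 5.85 and 5.92 in nuclei and 5.599, 5.77 and 5.91 in cytoplasm. Soleus read 5.13, 5.14 and 5.22 in nuclei and 5.67, 5.74 and 5.72 in cytoplasm. TA read 4.62, 4.79 and 4.77 in nuclei and 6.18, 6.33 and 5.66 in cytoplasm. The fractions overlapped in EDL and were separate in soleus and TA, where cytoplasm was higher. The difference was 0.10 ± 0.18 in EDL, -0.55 ± 0.18 (SE, limma adjusted p = 0.022) in soleus and -1.33 ± 0.18 (limma adjusted p = 3.0e-05) in TA. The soleus call was lost without soleus cytoplasm 3 (adjusted p = 0.052) or soleus nuclei 1 (0.066) or 2 (0.062), with normexp background correction (0.080) or with well above background spots only (0.34), and with no scaling between arrays the soleus difference was 0.36 and did not pass.

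**Figure D2:**
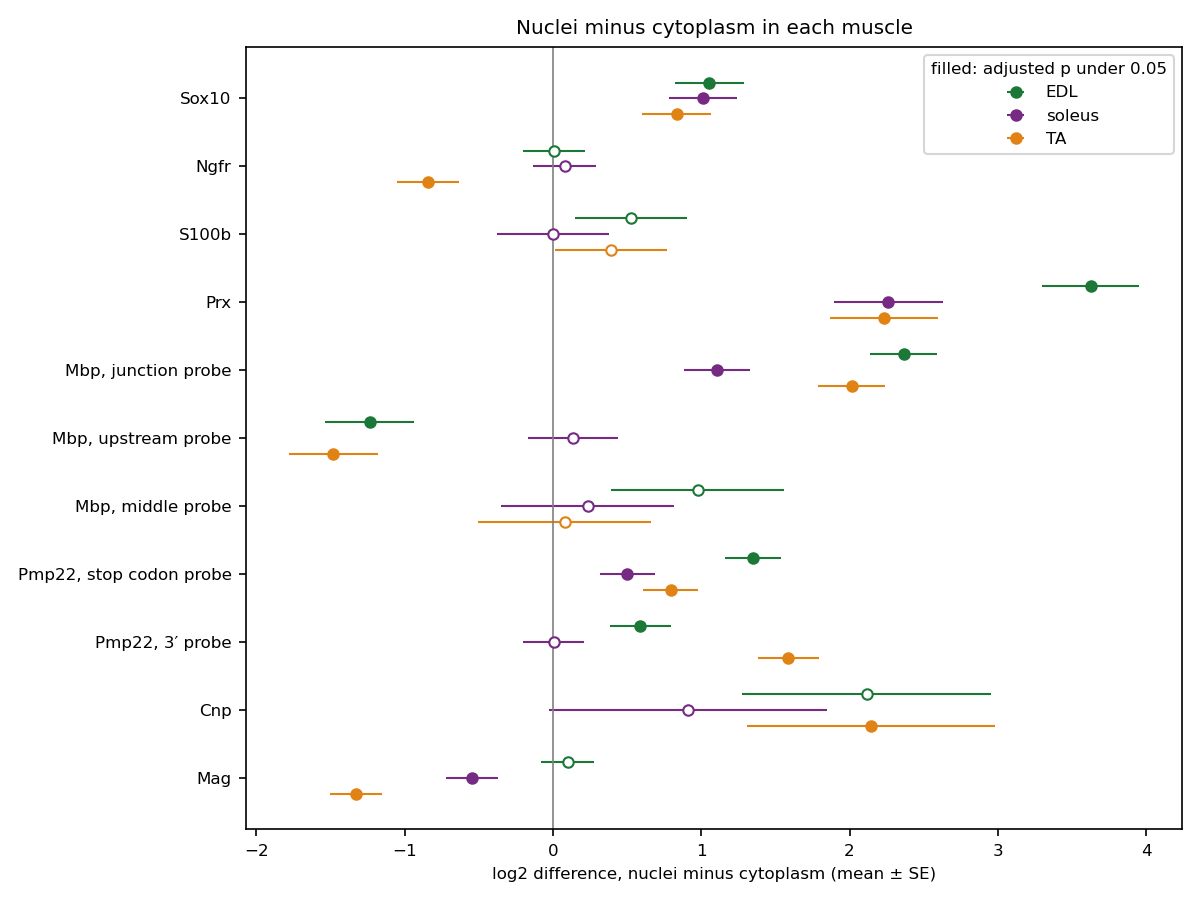
Log2 difference of nuclei minus cytoplasm (horizontal axis, mean ± SE) of the 11 probes in EDL, soleus and TA, with filled points for an adjusted p under 0.05. Sox10, Prx, the Mbp junction probe and the Pmp22 stop codon probe are filled and above 0 in all 3 muscles, and Mag and the upstream Mbp probe lie at -1.33 and -1.48 in TA.

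Counted over the 3 muscles together, 6 of the 11 probes were called higher in nuclei and 2 higher in cytoplasm, where 31.2% and 38.6% of all probes were called. The nuclear ones were the Mbp junction probe (1.83 ± 0.13, SE), Sox10 (0.97 ± 0.13), both probes of Pmp22 (0.88 ± 0.11 and 0.73 ± 0.12), Prx and Cnp. The measured differences of Prx (2.71 ± 0.20) and Cnp (1.72 ± 0.50) set nuclei against cytoplasm that was well above background on 0 of 9 and 2 of 9 arrays. That of Cnp includes the TA value, which was lower within the shared scan day. The cytoplasmic ones were the upstream Mbp probe (-0.86 ± 0.17) and Mag (-0.59 ± 0.10), the latter not called with no scaling between arrays (-0.18, limma adjusted p = 0.24). The median difference of the members was 0.73 and that of all probes -0.08. With no scaling between arrays the counts were 8 and 1. The nuclear arrays of a muscle varied little, and a fit with them averaged to 1 sample per muscle called 5 probes, all higher in nuclei, at Prx, Sox10, Pmp22 (both probes) and the Mbp junction.

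In EDL 5 probes were called higher in nuclei and 1 higher in cytoplasm, against 20.0% and 26.5% of all probes. In soleus 4 were called higher in nuclei and 1 higher in cytoplasm, against 18.7% and 21.7%. In TA 6 were called higher in nuclei and 3 higher in cytoplasm, against 19.2% and 33.5%. Median differences of the members were 0.97, 0.23 and 0.79 in EDL, soleus and TA, and those of all probes -0.05, -0.01 and -0.22. Higher in nuclei in each of the 3 muscles were 4 probes, those of Sox10 and Prx, the Mbp junction probe and the Pmp22 stop codon probe, against 10.6% of all probes tested. With no scaling the soleus counts were 8 and 0, and with normexp background correction 4 and 0. With nuclear arrays averaged to 1 sample per muscle, the calls within muscles were Prx and the Mbp junction probe in EDL, 0 in soleus, and the Mbp junction probe and the 3′ probe of Pmp22 in TA, so the other calls within muscles, those of Sox10 and Mag among them, were made only with nuclear arrays counted as separate samples. The soleus total of 5 called probes fell to 3 without soleus cytoplasm 1 or 3 or soleus nuclei 1 or 2.

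The size of the difference depended on the muscle for 2 of the 11 probes by the moderated F test of the interaction, against 1.57% of all probes. For Mag (adjusted p = 0.024) the difference in TA was lower than in EDL by 1.43 on the log2 scale, a contrast of -1.43 ± 0.25 (SE, limma adjusted p = 0.032). For the 3′ probe of Pmp22 (adjusted p = 0.031) the difference in TA was above that in soleus by 1.58 ± 0.29 (SE, limma adjusted p = 0.012). With the replicate number as a block 1 probe was called, that of Mag, the Pmp22 probe having a limma adjusted p of 0.065. With no scaling between arrays the Pmp22 call was also lost (limma adjusted p = 0.21). Neither call held when any 1 of the 9 nuclear arrays or TA cytoplasm 2 was left out, with adjusted p-values from 0.055 to 0.080 for Mag and from 0.056 to 0.090 for Pmp22. The TA fractions were laid out over slides otherwise than those of EDL and soleus. Muscle and slide layout therefore cannot be told apart in this test. EDL and soleus alone, which share their slides, gave no call.

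Nuclear fractions of the 3 muscles were then compared, since nearly all members were measured there. The EDL nuclei had the highest mean at 9 of 11 probes, against 31.6% of all probes, and the lowest at 0, against 26.1%. The TA nuclei had the lowest mean at 9 of 11, against 49.1%. The exceptions to the EDL maximum were the upstream Mbp probe, highest in soleus nuclei, and Cnp, highest in TA nuclei.

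EDL and soleus nuclei shared a slide and mice. All 3 soleus nuclear arrays lay below all 3 EDL nuclear arrays at 9 of the 11 probes, against 17.4% of all probes. By the fit 1 probe was called lower in soleus nuclei, against 0.579%, and 0 higher, against 0.978%. The called one was the Mbp junction probe, at -1.26 ± 0.23 (SE, limma adjusted p = 0.0073). Prx at -1.20 ± 0.33, S100b at -0.91 ± 0.38, Mag at -0.69 ± 0.18, Sox10 at -0.66 ± 0.23 and Ngfr at -0.64 ± 0.21 did not pass, with limma adjusted p-values of 0.11, 0.40, 0.069, 0.26 and 0.21. These SEs took in the cytoplasmic arrays, so a failure to pass does not show scatter among the nuclear arrays. For Sox10 the SD was 0.03 in EDL nuclei and 0.04 in soleus nuclei, against 0.58 in EDL cytoplasm. The counts in this comparison were 2 lower and 1 higher with scaling to the 75th percentile, 3 lower and 0 higher with normexp background correction, and 1 lower and 1 higher with no scaling.

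TA and EDL nuclei came from different slides and mostly different mice, so muscle and slide cannot be told apart here. All 3 TA nuclear arrays lay below all 3 EDL nuclear arrays at 10 of the 11 probes, against 35.4% of all probes. Called lower in TA nuclei were 7 probes of 5 genes, against 9.81%, and 0 were called higher, against 7.59%. These were the Mbp junction probe (-1.47 ± 0.23, SE), both Pmp22 probes (-1.32 ± 0.19 and -0.72 ± 0.21), Prx (-1.37 ± 0.33), Mag (-1.13 ± 0.18), Ngfr (-0.74 ± 0.21) and the middle Mbp probe (-1.76 ± 0.58). The middle Mbp call was lost with the replicate number as a block (limma adjusted p = 0.053), with normexp (0.056), with no filter on dim spots (0.10), with outlier spots kept (0.053) and without EDL nuclei 1, 2 or 3 or TA nuclei 1 or 3 (0.11 to 0.18). The calls of Ngfr and the 3′ probe of Pmp22 were lost whichever of the 6 arrays was left out, with limma adjusted p from 0.057 to 0.089 and from 0.070 to 0.087, and that of Prx without EDL nuclei 2 (0.051) or TA nuclei 1 (0.054). With no filter on dim spots Prx (0.085) and Ngfr (0.053) were not called. Sox10 (-0.49 ± 0.23) and S100b (-1.12 ± 0.38) did not pass. The total of 7 fell to 3 without EDL nuclei 2 or TA nuclei 1 and to 4 without EDL nuclei 1, EDL nuclei 3 or TA nuclei 3. With normexp background correction 8 were lower and 1 higher. The median difference of the members was -1.12 and that of all probes -0.11.

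TA and soleus nuclei likewise came from different slides and mostly different mice, so muscle and slide cannot be told apart between them. All 3 TA nuclear arrays lay below all 3 soleus nuclear arrays at 5 of the 11 probes, against 35.8% of all probes. Between TA and soleus nuclei 3 probes of 2 genes were called lower in TA, against 11.9% of all probes, and 1 higher, against 7.75%. The lower ones were the upstream Mbp probe (at least 3.75-fold by its lower limit, as it was not well above background in TA nuclei), the middle Mbp probe (-1.74 ± 0.58, SE) and the Pmp22 stop codon probe (-0.95 ± 0.19). The middle Mbp call was lost with the replicate number as a block (limma adjusted p = 0.051), with normexp (0.054), with no filter on dim spots (0.11), with outlier spots kept (0.0502) and when soleus nuclei 1, 2 or 3 or TA nuclei 1 or 3 was left out (0.083 to 0.17). With no scaling 7 were lower and 1 higher. Cnp was higher in TA nuclei by 2.93 ± 0.84 (limma adjusted p = 0.026). The Cnp call was lost without soleus nuclei 1, 2 or 3 (limma adjusted p = 0.069, 0.075 and 0.058) or TA nuclei 2 or 3 (0.062 and 0.093), and the total of 4 fell to 2 without soleus nuclei 1, 2 or 3 or TA nuclei 3. Neither Sox10 (0.17 ± 0.23) nor S100b (-0.21 ± 0.38), Prx (-0.17 ± 0.33), Ngfr (-0.10 ± 0.21) or the Mbp junction probe (-0.20 ± 0.23) passed the test between these nuclei.

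**Figure D3:**
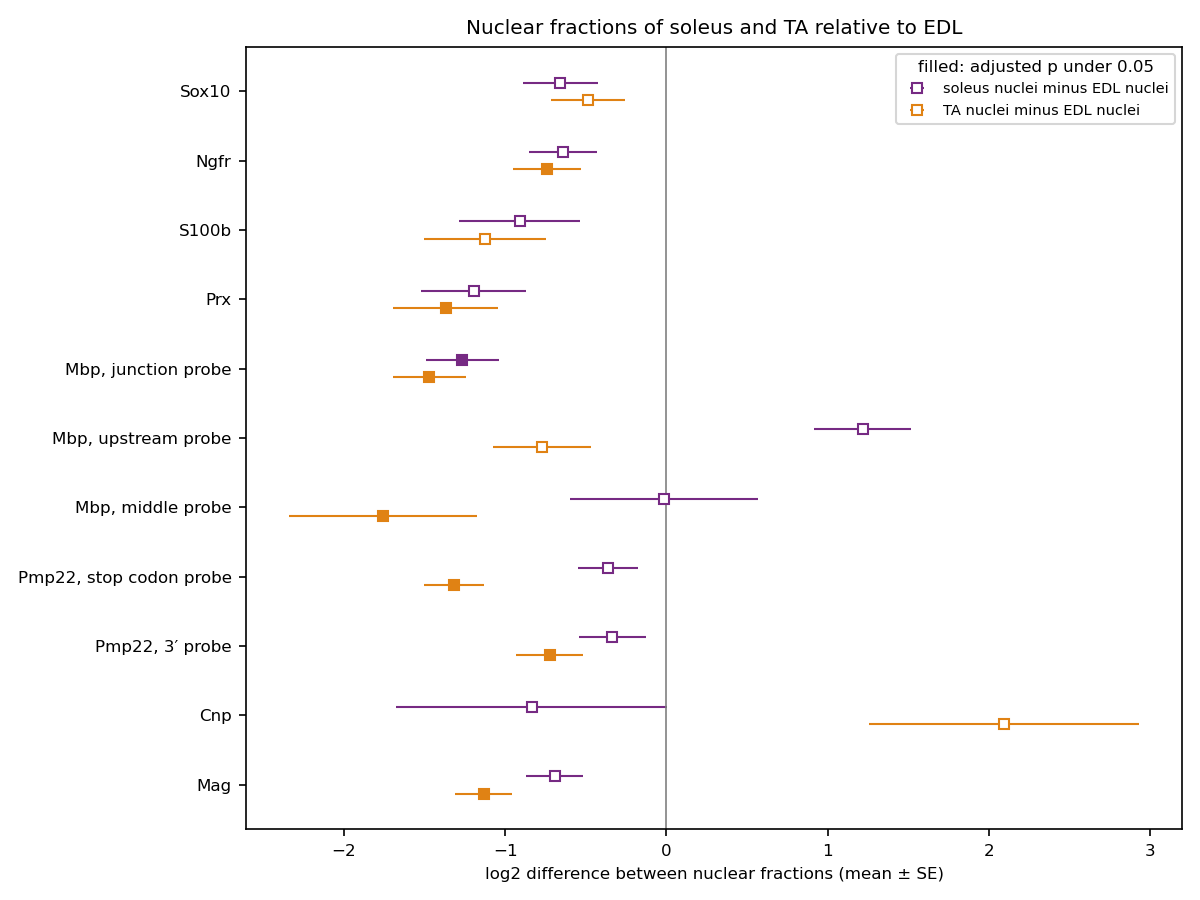
Log2 difference (horizontal axis, mean ± SE) of soleus nuclei minus EDL nuclei and of TA nuclei minus EDL nuclei for the 11 probes, with filled points for an adjusted p under 0.05. Most points lie left of 0, the exceptions being Cnp in TA at 2.09 and the upstream Mbp probe in soleus at 1.22, both of them open.

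Other genes of Schwann cells, 39 in 5 lists, were read at the brightest probe of each. Over all probes 31.2% were called higher in nuclei and 38.6% higher in cytoplasm, the shares to set beside the counts of each list. Among lineage regulators and receptors, 6 of the 7 genes tested were higher in nuclei over the 3 muscles and 0 lower, with a median difference of 0.88 against -0.08 over all probes. Egr2, the zinc finger factor that acts with Sox10 on myelin genes, was higher by 1.94 ± 0.13 (SE, limma adjusted p = 9.3e-09). Erbb3, the receptor for axonal neuregulin, was higher by 1.15 ± 0.17 and well above background on 9 of 9 nuclear and 3 of 9 cytoplasmic arrays. Nab1, a partner of Egr2, was higher by 0.92 ± 0.12, and the POU factor Pou3f1 by 0.88 ± 0.23. Pou3f1 was well above background on 7 of 9 nuclear and 2 of 9 cytoplasmic arrays. Foxd3 and Sox2, genes of the early crest and of immature cells, were not well above background on any array.

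Among the compact myelin proteins 3 of the 4 tested genes were higher in nuclei and 0 lower, with a median of 0.92. Mal, a small membrane protein of myelin, was higher by 0.91 ± 0.17 (SE, limma adjusted p = 0.0003) and was well above background on 6 of 9 nuclear and 2 of 9 cytoplasmic arrays.

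Proteins of adhesion, junctions and paranodes did not move in a single direction, 2 of 9 being higher in nuclei and 3 lower, with a median of -0.15. Of all probes 31.2% and 38.6% were called in these directions. Gjb1, the gap junction protein connexin of non-compact myelin, was lower in nuclei (-1.21 ± 0.13, SE, limma adjusted p = 8.5e-07), as was Drp2 (-0.46 ± 0.11), the partner of periaxin. Sema3b (0.84 ± 0.10) and Gldn (0.65 ± 0.25) were higher. Among genes of immature and non-myelinating cells 1 of 8 was higher, Gfra3 (0.90 ± 0.20), and 1 lower, Fabp7 (-0.64 ± 0.17). Among myelin lipid enzymes 1 of 2 was higher, Aspa (0.46 ± 0.18), and Ugt8a, Gal3st1 and Fa2h were not well above background on any array.

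Genes of oligodendrocytes, the cells that make central myelin and are absent from muscle, served as a comparison. Of 4 tested, 0 were higher in nuclei and 1 lower, Mog (-1.38 ± 0.20, SE, limma adjusted p = 1.9e-05), with a median of -0.29. Mog, Cldn11 and Olig2 were well above background on at least 8 of 9 arrays of each fraction, and Olig1 and Opalin on no array. The group means of Mag, 4.73 to 6.06, lay within those of Mog, 4.17 to 6.84. The flag alone therefore does not show that a transcript such as Mag was present. Of 10 genes of axons and motor neurons tested, 0 were higher in nuclei and 6 lower, with a median of -0.42, where 38.6% of all probes were called higher in cytoplasm. Stmn2 (0.18 ± 0.16), Syp (0.16 ± 0.10) and Prph (0.07 ± 0.12) were not called over the 3 muscles. Prph was called in opposite directions within muscles. It was higher in nuclei in soleus (0.82 ± 0.20, limma adjusted p = 0.0051) and lower in nuclei in TA (-1.01 ± 0.20, limma adjusted p = 0.00083). The neurofilament genes Nefh (-1.68 ± 0.21) and Nefm (-1.61 ± 0.20), the dendritic and neuronal microtubule protein gene Map2 (-0.79 ± 0.13) and the vesicular acetylcholine transporter gene Slc18a3 (-0.78 ± 0.16) fell the most. Nefm was well above background on 3 of 9 nuclear and 8 of 9 cytoplasmic arrays. The neurofilament gene Nefl was well above background on 3 of 9 nuclear and 3 of 9 cytoplasmic arrays. Its signal was high in TA, with a mean of 8.45 in nuclei and 8.45 in cytoplasm. In EDL and soleus its mean was 3.06 and 3.23 in cytoplasm, and their nuclei had no value.

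Markers of several other cell types were mostly higher in nuclei, as were the Schwann cell lineage regulators and compact myelin proteins. Their part in these results was not tested. Higher in nuclei were 12 of 12 endothelial genes (median 0.81), 8 of 10 fibroblast genes (0.89), 4 of 7 smooth muscle and pericyte genes (0.87), 3 of 4 satellite cell genes (1.05) and 12 of 14 myofiber genes (0.78). Tagln, of the smooth muscle and pericyte list, was called lower in nuclei (-0.43 ± 0.10, SE, limma adjusted p = 0.0013). The summed intensity of the endothelial list was 11034 to 12013 in EDL nuclei and 6379 to 6915 in EDL cytoplasm. Lower in nuclei were 4 of 7 macrophage genes (median -0.55), 3 of 4 adipocyte genes (-0.97) and 2 of 4 erythroid genes (-0.45), and 0 genes of these lists were higher over the 3 muscles, where 38.6% of all probes were called higher in cytoplasm and 31.2% in nuclei. In TA alone the erythroid list had a median of 0.63, with 2 genes higher in nuclei and 1 lower. The satellite cell gene Myf5 was not well above background on any array, and all 14 myofiber genes were so on every array.

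The endothelial sum was 10442 to 11009 in soleus nuclei and 6112 to 10965 in soleus cytoplasm, and 13323 to 15823 in TA nuclei and 3340 to 5920 in TA cytoplasm. From EDL to TA nuclei the 8 genes had a median difference of -1.13, the compact myelin list -1.31, the fibroblast list -0.56, the myofiber list -0.31 and the endothelial list 0.30, beside -0.11 for all probes. Of the tested genes 5 of 8, 2 of 4, 2 of 10, 5 of 14 and 1 of 12 were lower in TA nuclei, and higher were 1 endothelial gene and 0 of the others. Over all probes 9.81% were called lower and 7.59% higher in this comparison. The remaining Schwann cell lists did not share the fall of the compact myelin list. Lineage regulators and receptors had a median of -0.14 (0 of 7 higher, 1 lower). Adhesion, junction and paranode proteins had -0.02 (1 of 9 higher, 2 lower). Genes of immature and non-myelinating cells had -0.21 (2 of 9 higher, 1 lower), and myelin lipid enzymes 0.60 (0 of 2 called).

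The genes whose level over arrays was most like a member's, among 24603 genes compared, were found by Pearson's r, as a description in which the arrays share slides and fractions. For the Mbp junction probe they were Rnd1 (r = 0.97), Kbtbd12 (0.96) and Lama4 (0.96), over 18 arrays. For the Pmp22 stop codon probe they included Fkbp9 (0.96) and Adcy2 (0.96). For S100b they were Acsl6 (0.91), Ctsb (0.88) and a transcript without a gene symbol. For Mag they were Tekt2 (0.93), 4930538E20Rik (0.90) and Actl7b (0.89). For Cnp, over 17 arrays, they included Cdc42ep5 (0.97) and Poldip2 (0.97). For Sox10, AI481207 came first (0.96). For Prx, over 16 arrays, Aga was among the first 3 (0.96), and for Ngfr H2-Ke2 (0.79) and Gm996 (0.79) were, the others of the first 3 for Sox10, Prx and Ngfr being transcripts without a gene symbol.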

How the data were processed

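Single-channel Agilent arrays of mouse myofiber RNA, split into nuclei and cytoplasm, were read for 18 samples, grouped and numbered by their labels. The deposited scanner files, per the file headers, hold an intensity per position that Agilent Feature Extraction 10.7.3.1 corrected for background. The authors also deposited quantile-normalized intensity for 3668 probe names, none of them a member's, which was not used. Intensity was taken to log2. Positions without positive and significant signal, or marked as outliers, were set to missing, and the 18 arrays were quantile-normalized and positions of a probe name averaged. Group means were fitted with limma 3.58.1 (R 4.3.3, eBayes, prior degrees of freedom 3.27), p-values being adjusted by Benjamini and Hochberg over all probes tested in that comparison, 2-sided, threshold 0.05. A probe needed a value on 2 of 3 arrays in each group. The study's methods name Significance Analysis of Microarrays, and limma was used in its place. Well above background is the scanner software's flag.

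The members and the gene lists were chosen with earlier results of these data known. All member probes were named. From the other lists up to 4 called genes with the largest difference over the 3 muscles were named, and for each member the 3 genes most like it, some of which are not reported here. Rbfox3 and Map2 were also looked for under older names, without a match for Rbfox3, and RefSeq tables (GRCm38.p6) gave names and promoter sequences. Alternatives were another scaling, background correction and filter, the replicate block, slides within TA, nuclear arrays averaged to 1 sample, and leaving out each array. The fits were tested on simulated data.

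By the labels, same-numbered nuclear and cytoplasmic pools of EDL and of soleus came from the same mice, and those of TA only in part. Deviations of same-numbered arrays from their group means correlated, across 35528 probes, between -0.09 and 0.13. TA cytoplasm 1 and 2 share mouse 5. Replicate arrays correlated across probes with r of 0.985 to 0.992 in nuclear groups and 0.906 to 0.971 in cytoplasmic groups. The p-values measure the spread between these arrays, and the number of arrays limits the precision. Python 3.11.15, numpy 2.4.6, pandas 2.3.3, data.table (version 1.17.8) and matplotlib 3.10.9 were also used.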

Additional observations from a re-analysis of the deposited data

Results flagged for a closer look

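The difference between nuclei and cytoplasm depended on the muscle at 2 probes by the moderated F test of the interaction in limma. They were Mag (adjusted p = 0.0244) and the 3′ probe of Pmp22 (adjusted p = 0.0307). At Mag the difference went from 0.10 in EDL through -0.55 in soleus to -1.33 in TA, and at the 3′ probe of Pmp22 it was 0.59, 0.00 and 1.59. The stop codon probe of Pmp22, 1127 bases away, gave 1.35, 0.50 and 0.79 and an interaction adjusted p of 0.19. With no scaling between arrays the interaction at the 3′ probe of Pmp22 had an adjusted p of 0.21. Neither call held when any nuclear array or TA cytoplasm 2 was left out. The fractions of TA were laid out over slides otherwise than those of EDL and soleus, so muscle and slide layout cannot be told apart.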

How the results depend on the processing

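Differences in log2 are nuclei minus cytoplasm unless nuclei of muscles are named, and counts are of called probes of 11. With no scaling between arrays, the median over the 3 muscles was 0.42 for all probes and 1.48 for the members, and with scaling to the 75th percentile it was -0.30 and 0.77. With no scaling the counts were 8 in soleus, 4 for the interaction, 2 between soleus and EDL nuclei and 8 between TA and soleus nuclei. Directions turned with no scaling for Ngfr over the 3 muscles (0.38, limma adjusted p = 0.016) and S100b in soleus (1.05, limma adjusted p = 0.023), which then passed, and for Mag in soleus (0.36), the middle Mbp probe in TA (-0.066) and between soleus and EDL nuclei (0.28), and Sox10 between TA and soleus nuclei (-0.46). Scaled to the 75th percentile, soleus and EDL nuclei gave 3 calls, and directions turned for Mag (-0.19) and Ngfr (-0.042) in EDL, for Ngfr (-0.028), the upstream (-0.046) and middle (-0.15) Mbp probes and the 3′ probe of Pmp22 (-0.00099) in soleus, and for the middle Mbp probe in TA (-0.36). With normexp background correction the counts were 4 for the interaction and 3 between soleus and EDL nuclei. With spots well above background only, they were 5 over the 3 muscles, 3 in soleus and 3 between soleus and EDL nuclei, and S100b in soleus (0.22) and the middle Mbp probe between soleus and EDL nuclei (0.016) turned. With no filter on dim spots they were 2 between soleus and EDL nuclei and 4 between TA and EDL nuclei, and S100b in soleus turned (0.042). With nuclear arrays averaged to 1 sample per muscle, each assumed to vary like the cytoplasmic groups, they were 5 over the 3 muscles, 2 in EDL, 0 in soleus, 2 in TA and 0 for the interaction, which was also 0 in EDL and soleus alone. Of single called values, 41 of 42 stayed called in the same direction with the 75th percentile, 39 of 42 with no scaling, 39 of 42 with normexp, 30 of 32 with well above background spots, 38 of 42 with no filter, 40 of 42 with outlier spots kept, 38 of 38 with values on 3 of 3 arrays and 9 of 30 with nuclear arrays averaged. The cause of these changes was not tested.

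With the replicate number as a block, which pairs EDL and soleus arrays by mice, 37 of 42 called values stayed called and the interaction count was 1. TA arrays share mice with the other arrays of their number only in part, so the block does not pair them by mice. The calls lost, all limma adjusted p, were the Pmp22 stop codon probe in soleus (0.059), Cnp in TA (0.054), the 3′ probe of Pmp22 for the interaction (0.065), and the middle Mbp probe between TA and EDL nuclei (0.053) and between TA and soleus nuclei (0.051).

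Leaving out 1 array at a time gave 6 to 9 calls over the 3 muscles, 5 to 7 in EDL, 3 to 4 in soleus, 7 to 9 in TA, 0 to 3 for the interaction, 1 to 1 between soleus and EDL nuclei, 3 to 5 between TA and EDL nuclei and 2 to 3 between TA and soleus nuclei. Uncalled differences that turned spanned -0.16 to 0.11 for Ngfr in EDL, and in soleus -0.078 to 0.23 for Ngfr, -0.34 to 0.47 for S100b, -0.25 to 0.50 and -0.092 to 0.55 for the upstream and middle Mbp probes and -0.24 to 0.25 for the 3′ probe of Pmp22. The middle Mbp probe spanned -0.53 to 0.60 in TA and -0.18 to 0.11 between soleus and EDL nuclei. The deposited normalized values, which hold none of the members, gave no value. Signal near background limits Prx and Cnp in cytoplasm, the upstream Mbp probe in TA nuclei and the middle Mbp probe throughout.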
